A study of Mus musculus with 20 samples.

Results

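Gene expression in the frontal pole (labelled prefrontal cortex) of mice that had rested for 5 days after 13 days of social stress was compared with that of unstressed controls. The data were the 5 arrays, of 20 in the series, whose labels give 13 days of stress followed by 5 days of recovery. Each array held, side by side, labelled RNA from a pool of 3 formerly stressed male Swiss-Webster mice and from a pool of 3 of their control siblings. Pool 1 was measured on 1 array with the stressed sample in Cy5, and pools 2 and 3 each on an original array and on a dye-swap array with the stressed sample in Cy3. Of 39429 non-control probes, 26476 (67.1%) were well above background in at least 1 of the channels on every one of the 5 arrays, and these probes are described here. A further 3921 probes reached that level on some recovery arrays and 9032 on none.

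Both groups were taken from their families at 12 weeks of age and single housed until the end. Stressed mice were intruders in cages of unfamiliar group-housed males over 13 days, and controls, which had a group of their own for each time point, were left undisturbed. The 2 groups were kept in separate adjacent rooms, so room and stress cannot be told apart. Swiss-Webster is an outbred stock, no engineered allele is given, and single mice cannot be resolved within a pool, which was made from the samples richest in RNA. The rested mice were compared in places with mice taken at the end of 13 days of stress, which were other animals with other controls. All values are log2 ratios of stressed over control unless a difference is named, and a negative value is a lower level in the stressed mice. A recovery mean is that of 3 pools, and its SD is that between the pools.

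Interferons are cytokines that alert cells to infection. Interferon gamma acts at the GAS element and strongly induces the immunity-related and guanylate-binding GTPases, which attack the vacuoles of intracellular microbes, and the genes that load peptides on molecules of the major histocompatibility complex (MHC). Type I interferons act through the ISRE element and induce antiviral genes such as Isg15 and the Ifit family. In brain tissue with its vessels, hemoglobin transcripts come mainly from red cells and S100a8 and S100a9 mainly from neutrophils, and clock output genes such as Dbp follow the time of day. In bulk tissue, fewer cells of a type and less RNA per cell cannot be told apart.

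The upstream sequences of 3 GTPase genes and of the MHC class I gene H2-T23 are shown because the negative values in recovery gathered in these families. Each is the 250 bases before the RefSeq start, read 5′ to 3′ on the strand of the gene in GRCm38.p6. Capitals mark a GAS motif (TTCNNNGAA, a pattern that reads the same on both strands) or an ISRE core, which is GAAA, 2 bases of any kind and GAAA again, or the same pattern on the other strand (TTTC, 2 bases, TTTC). The regions are chr11:49064213-49064462 on the minus strand for Tgtp2, chr11:58199306-58199555 on the plus strand for Igtp, chr3:142620413-142620662 on the plus strand for Gbp2 and chr17:36032702-36032951 on the minus strand for H2-T23.
Tgtp2: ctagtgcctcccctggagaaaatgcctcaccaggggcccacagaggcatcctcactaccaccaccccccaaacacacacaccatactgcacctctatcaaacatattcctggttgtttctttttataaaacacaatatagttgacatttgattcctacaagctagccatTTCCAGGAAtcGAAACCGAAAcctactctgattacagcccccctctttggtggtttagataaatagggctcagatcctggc
Igtp: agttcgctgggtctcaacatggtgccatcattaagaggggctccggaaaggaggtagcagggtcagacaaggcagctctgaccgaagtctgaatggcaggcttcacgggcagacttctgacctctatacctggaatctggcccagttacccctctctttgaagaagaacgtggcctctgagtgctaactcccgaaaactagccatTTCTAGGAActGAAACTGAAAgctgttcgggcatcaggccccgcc
Gbp2: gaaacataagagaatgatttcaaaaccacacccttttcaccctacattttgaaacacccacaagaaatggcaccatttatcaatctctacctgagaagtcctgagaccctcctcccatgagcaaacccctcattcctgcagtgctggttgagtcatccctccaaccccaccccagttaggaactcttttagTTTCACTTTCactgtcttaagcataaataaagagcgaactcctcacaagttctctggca
H2-T23: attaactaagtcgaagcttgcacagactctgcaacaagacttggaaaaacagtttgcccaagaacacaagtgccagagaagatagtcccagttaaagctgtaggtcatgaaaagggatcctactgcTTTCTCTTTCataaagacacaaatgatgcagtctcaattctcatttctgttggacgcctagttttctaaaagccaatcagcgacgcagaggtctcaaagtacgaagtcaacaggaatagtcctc

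In Tgtp2 and Igtp a GAS match and an ISRE core lay side by side without overlap, starting at -81 and -70 and at -45 and -34 from the gene start. Gbp2 had an ISRE core at -59 and H2-T23 at -124, and neither had a GAS match in this window. Among 27025 promoters of this length, 7.18% held the GAS letters and 3.04% an ISRE core. Of the 18 GTPase genes measured, 10 were matched to a promoter, and 10 of these held an ISRE core and 7 a GAS match. Of 24 matched type I interferon genes 9 held an ISRE core, and of 13 matched antigen presentation genes 2 did (B2m and H2-T23). These are matches of letters, and binding was not tested.

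No probe passed the test in recovery. With thresholds of 0.05 for the adjusted p and 0.5 for the size of the log2 ratio, limma called 0 of 39429 probes (0%), and its lowest adjusted p was 0.989. Unadjusted, 1588 probes (4.03%) had a limma p under 0.05. Among the 26476 probes above background these were 602 higher (2.27%) and 543 lower (2.05%). Most log2 ratios were small, from -0.10 at the 5th percentile to 0.11 at the 95th, and the median SE in the fit was 0.054. A log2 ratio over 0.5 in size was found for 23 of the 26476 probes, 21 of them negative, and 12 of the 23 were at 0.5 or less as the mean of pools 2 and 3. All 5 arrays were negative for 10 of the 23, which measure Tgtp2, Gbp4, Igtp, Gbp11, Ifi47, Gbp3, Rfx2, Isg15, Gbp2 and Chmp4b. Of these, 7 are GTPases of the interferon gamma response and Isg15 is a type I interferon gene. Gbp4, Gbp3, Ifi47 and Isg15 were singled out after their values were seen.

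**Figure D1:**
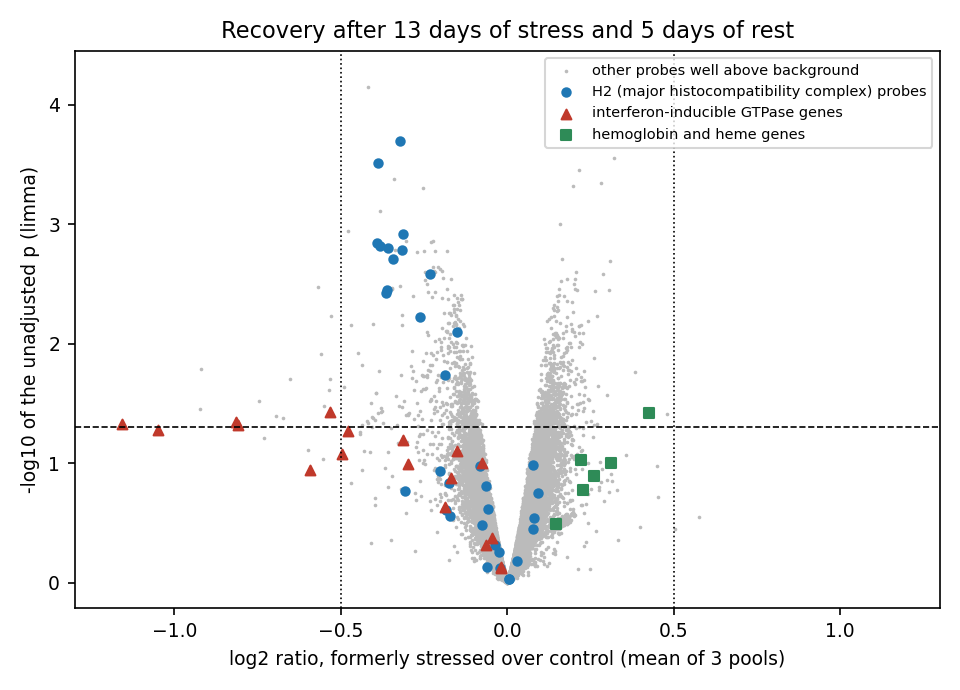
Mean log2 ratio of 3 pools (x axis, formerly stressed over control) against -log10 of the unadjusted p by limma (y axis) for each probe well above background. The dashed line marks a p of 0.05 and the dotted lines log2 ratios of 0.5 in size. H2 probes (blue) reached -0.39, GTPase genes (red triangles) reached -1.16, and hemoglobin and heme genes (green squares) lay between 0.15 and 0.42.

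The arrays differed in ways that bear on every value. On a recovery array 70.5% to 72.3% of probes exceeded background clearly, and 0 spots were saturated. Turned the same way, arrays of the same dye orientation had an r of 0.262 to 0.499 across the 26476 probes, whereas the original and swap arrays had an r of -0.338 in pool 2 and of -0.126 in pool 3. Pool means were almost unrelated to each other (r of -0.087 to 0.022). Pool 1, which has no swap here, had a wider spread over probes (SD 0.181) than pool 2 (0.081) and pool 3 (0.109), and an r of 0.298 with the dye effect measured at the other time points, against 0.040 and 0.037. The arrays of pool 3 were scanned on another day than those of pools 1 and 2. Array values are therefore given in the order pool 1, pool 2 original, pool 2 swap, pool 3 original and pool 3 swap.

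The labelled tissue was checked against its markers. All 11 general neuron markers, 17 of 17 astrocyte markers and 24 of 25 myelin markers were well above background, with Snap25, Slc17a7, Aqp4 and Mbp among them. So were 8 of 9 olfactory bulb markers and 15 of 21 choroid plexus markers, some of which cortex also expresses. All 26 meningeal fibroblast and all 21 microglial markers reached this level as well, as did 67.1% of all non-control probes. These counts therefore do not single out cortex or any other part. Olfactory bulb markers had log2 ratios between -0.10 and 0.07.

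Interferon-inducible GTPases had negative values in most arrays. All 18 measured genes had a mean below 0, 13 were negative in 3 of 3 pools (11% over all probes above background) and 11 in 5 of 5 arrays (1.7%). Their median was -0.31, against 0.01 over all probes above background, and it was -0.28, -0.24 and -0.47 in pools 1, 2 and 3. With the background model fitted to all spots the median was -0.19. None passed the adjusted test, and 4 had an unadjusted limma p under 0.05 (2.05% over all).

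Tgtp2, an immunity-related GTPase (probe at chr11:48871837-48871896, mm9), had log2 ratios of -1.68, -0.86, -0.88, -0.99 and -0.87. All 5 lay far below 0, farthest in pool 1. Its mean was -1.16 ± 0.45 (SD, n = 3 pools), or 0.448 of control, with an SE of 0.529, an unadjusted limma p of 0.047 and an adjusted p of 0.989. Igtp, another immunity-related GTPase (probe at chr11:58020927-58020986, mm9), had -1.03, -0.62, -0.47, -0.93 and -0.82, with a mean of -0.82 ± 0.25, or 0.568 of control. No array of Igtp was near 0.

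Among guanylate-binding proteins, Gbp4 had -1.69, -0.68, -0.99, -0.57 and -0.68, with a mean of -1.05 ± 0.56. Gbp11 had -1.14, -0.67, -0.67, -0.72 and -0.50, with a mean of -0.81 ± 0.29. For both genes pool 1 was the lowest. Gbp2 had -0.66, -0.37, -0.36, -0.49 and -0.65 (mean -0.53 ± 0.15), and Gbp3 averaged -0.59 ± 0.15 with 5 negative arrays. Irgm2 (-0.50 ± 0.11) and Irgm1 (-0.30 ± 0.09), regulators of the same GTPase system, were also negative in 5 of 5 arrays.

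Gm4951 averaged -0.48 ± 0.14, Gm12250 -0.19 ± 0.01 and Gbp9 -0.15 ± 0.09, each negative in 5 of 5 arrays, and Gbp7 averaged -0.17 with 1 array above 0. The remaining members were closer to 0 or differed between probes. Gbp10 was at -0.02, Gbp6 at -0.06 and Iigp1 at -0.07. Gbp5 was at -0.02 at its brighter probe and at -0.30 at the other. Tgtp1, a near-identical neighbour of Tgtp2 whose transcripts may share probe signal with it, was at -0.05, from a dim probe. Mx2, an antiviral GTPase of the type I response, was at -0.02, -0.07, 0.01, -0.89 and -0.90, so that both arrays of pool 3 lay far below the rest. Gbp8 and Mx1 were not well above background on all 5 arrays.

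**Figure D2:**
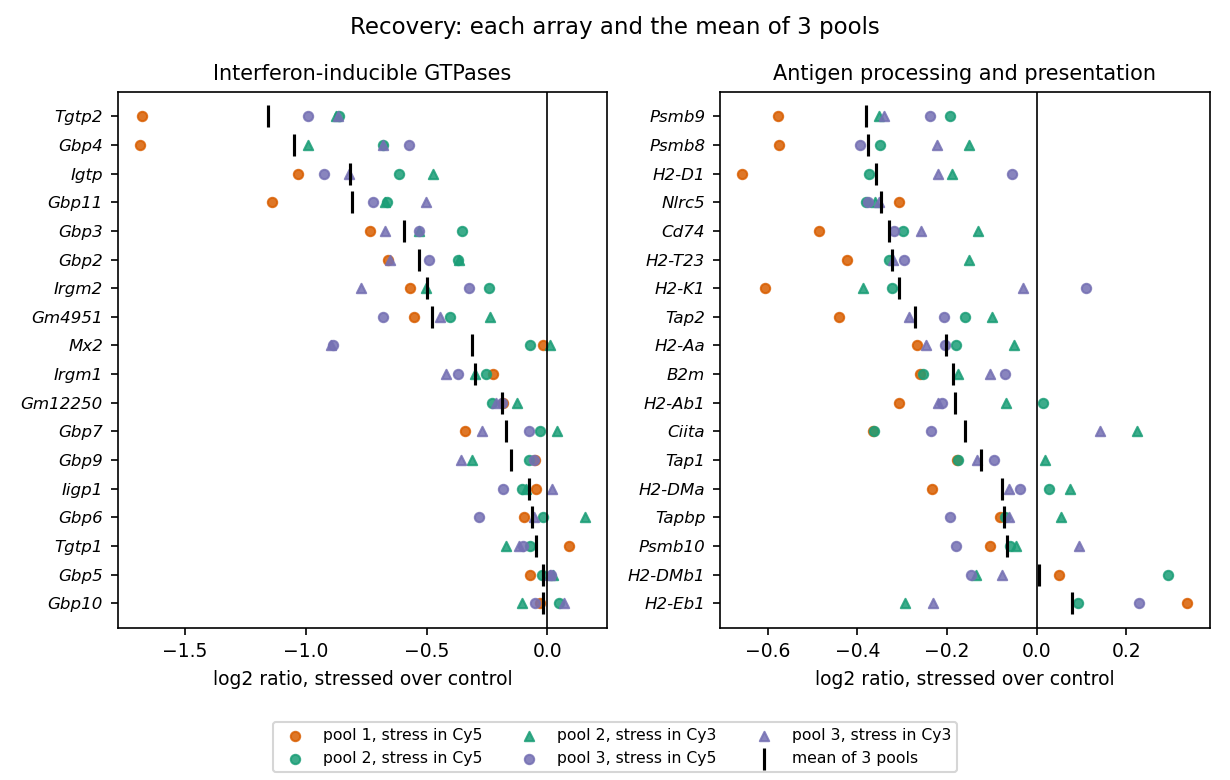
Log2 ratio of formerly stressed over control (x axis) on each of the 5 recovery arrays for the genes (y axis) of the GTPase list and of the antigen presentation list, 18 each, with the mean of 3 pools. Tgtp2, Gbp4, Igtp and Gbp11 were negative on every array, with means from -1.16 to -0.81, and H2-Eb1 had arrays on both sides of 0.

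At the end of 13 days of stress these GTPases also had a median below 0 (-0.23), but the pools disagreed. Tgtp2 was at -2.30, 1.10 and -1.42 in the 3 pools of that time point, and Igtp at -1.78, 0.51 and -1.14, with pool 2 positive for both. The difference, recovery minus 13 days, was -0.28 for Tgtp2 and -0.01 for Igtp, with unadjusted limma p of 0.709 and 0.982. The fit shares its estimate of the spread between time points. With the 3 recovery pools fitted alone, limma called 0 probes as well, with a lowest adjusted p of 0.708 and 875 probes at an unadjusted p under 0.05.

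Antigen presentation genes were mostly negative too. Of 18 measured genes 16 had a mean below 0, 14 were negative in 3 of 3 pools (11% over all) and 9 in 5 of 5 arrays (1.7% over all). Their median was -0.19, and -0.31, -0.12 and -0.13 in pools 1, 2 and 3. It was -0.31 with a normexp offset of 0, -0.34 from the scanner's own ratios and -0.085 with median centring. Median centring raised the median of all probes above background as well. An unadjusted p under 0.05 was reached by 5 with lower values (2.05% over all), and 0 passed the adjusted test. Of 34 measured H2 probes, which cover 27 genes, 22 were negative in 3 of 3 pools (11% over all) and 2 positive (12.5%), and 14 had an unadjusted p under 0.05 with lower values (2.05%), against 0 with higher (2.27%). The H2 family was singled out after these values were seen. Class I genes are near-identical to each other and vary in an outbred stock, so their probes may share signal and are not independent.

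H2-T23 encodes the nonclassical class I molecule Qa-1, a ligand of an inhibitory receptor of natural killer cells. Its log2 ratios were -0.42, -0.33, -0.15, -0.30 and -0.32. Every array was below 0 and the pools lay close together, with a mean of -0.32 ± 0.09 (0.799 of control, unadjusted limma p 0.0002, adjusted p 0.989). The classical class I gene H2-D1 had -0.66, -0.37, -0.19, -0.05 and -0.22, with a mean of -0.36. H2-K1, another classical gene, had -0.49, -0.28, -0.20, -0.16 and -0.27, with a mean of -0.31. Pool 1 was the lowest for both. A brighter H2-K1 probe had a mean of -0.31 as well, but was at 0.11 and -0.03 in pool 3. H2-Q7 (-0.39), H2-Q2 (-0.39), H2-T9 (-0.38), H2-Q8 (-0.34) and H2-M2 (-0.23) were also among the 15 genes with 5 negative arrays and the lowest unadjusted p, 8 of which are H2 genes.

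The genes that prepare peptides for class I molecules had values of the same sign. The immunoproteasome subunits Psmb9 (-0.38 ± 0.17) and Psmb8 (-0.38 ± 0.17) and the peptide transporter subunit Tap2 (-0.27 ± 0.16) were negative in 5 of 5 arrays. B2m, the light chain of class I molecules, had -0.26, -0.25, -0.17, -0.07 and -0.10, with a mean of -0.19 ± 0.09. Nlrc5, the transactivator of class I genes, was at -0.31, -0.38, -0.36, -0.38 and -0.35, a narrow set, but its other probe averaged -0.05. Class II genes were less even. Cd74, the invariant chain, averaged -0.33 and H2-Aa -0.20, each with 5 negative arrays, whereas H2-Eb1 was at 0.34, 0.09, -0.29, 0.23 and -0.23, with a mean of 0.08.

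After 13 days of stress the 8 H2 genes had means between -0.06 and 0.19. They were picked for low values in recovery, which by itself favours a negative difference from 13 days. Over the 18 antigen presentation genes the median was -0.15 at 13 days, and the median difference was -0.08. Of these genes 2 were lower in recovery at an unadjusted limma p under 0.05 (3.35% over all). Recovery minus 13 days was -0.36 for H2-T23 and -0.57 for H2-T9, negative on 5 of 5 slides for both, with unadjusted limma p of 0.00163 and 0.00095 and adjusted p of 0.738 and 0.658. It was also negative on 5 slides for H2-Q2, H2-K1 and H2-M2, on 4 for H2-Q7 and H2-Q8 and on 3 for H2-D1. On the original and swap slides of pool 2 it was -0.81 and -0.10 for H2-T23 and -0.84 and -0.02 for H2-Q2. For H2-D1 it was -0.86 and 0.04 there, and for H2-T9 -0.14 and -0.30. Some slides counted as negative were thus near 0. The 5 slides carry 3 pairs of pools and are not 5 independent comparisons. H2-T9 was above 0 in all 3 pools at 13 days, and the others only in pool 2. For example, H2-Q7 was at -0.22, 0.19 and -0.16 and H2-D1 at -0.16, 0.13 and -0.12. Psmb9 was at -0.76, 0.30 and -0.41 in the 3 pools after 13 days and Psmb8 at -0.71, 0.33 and -0.40, with pool 2 positive for both.

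The values of type I interferon-stimulated genes lay mainly in pool 3. Of 35 measured genes 32 had a mean below 0 and 4 an unadjusted p under 0.05 with lower values (2.05% over all). The median was -0.17, but in pools 1, 2 and 3 it was -0.03, -0.03 and -0.40. Pool 3 was the lowest of the 3 pools for 32 of the genes and under -0.3 for 25 (0.684% over all). Without pool 3 the median was -0.04, and with the background model fitted to all spots it was -0.09.

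Cxcl10, a chemokine that draws T cells, had -0.33, 0.02, -0.24, -2.31 and -2.33, and its probe was well above background in the stressed channel on 2 of the 5 arrays and in the control channel on 4. Isg15, a ubiquitin-like modifier, had -0.16, -0.03, -0.15, -1.58 and -1.24, and its other probe averaged -0.33. Ifit3, which binds the machinery of antiviral signalling, had -0.11, -0.04, -0.20, -0.88 and -1.08. For all of these both arrays of pool 3 lay far below the other 3. Rsad2, an antiviral enzyme, was at -1.02, 0.25, 0.20, -0.90 and -0.73, with pool 1 low as well. Ifi47, an immunity-related GTPase kept in this list, had -0.75, -0.38, -0.38, -0.65 and -0.68, negative throughout.

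Blood cell genes separated the pools. All 6 hemoglobin and heme genes were above 0 in pools 1 and 2 and below 0 in pool 3 (13.1% of all probes above background had this order), and so were 9 of 10 measured neutrophil genes. The hemoglobin median was 0.53, 0.64 and -0.43 in pools 1, 2 and 3, and the neutrophil median 0.34, 0.52 and -0.48.

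Hbb-b1, an adult beta globin, had 0.54, 0.72, 0.88, -0.51 and -0.30, with a mean of 0.31 ± 0.63. Alas2, the red cell enzyme that starts heme synthesis, had 0.32, 0.45, 0.79, -0.34 and -0.20. S100a9, which pairs with S100a8 in the calprotectin of neutrophils, had 1.16, 1.92, 2.15, -2.80 and -2.11, the pools of opposite sign and the 2 arrays of a pool close together. S100a8 (1.18, 1.28, 1.67, -2.22 and -1.80) and the granule peptide Camp (0.77, 1.35, 1.43, -0.79 and -0.51) had positive values in pools 1 and 2 and negative values in pool 3. The means of S100a9 (0.25 ± 2.38) and Camp (0.51 ± 1.05) describe none of their pools. Medians of other red cell genes (0.04), platelet genes (0.04), endothelial genes (0.01) and macrophage genes (0.01) were near 0. The part of blood cells, or of the scan day, in the pool 3 values of interferon genes was not tested.

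**Figure D3:**
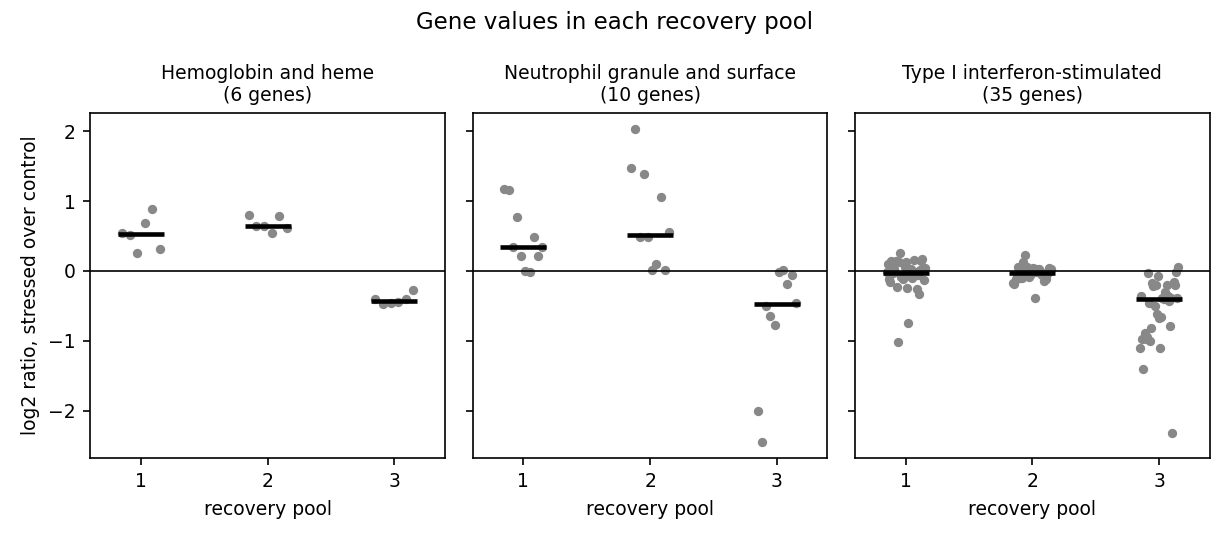
Log2 ratio of formerly stressed over control (y axis) in each recovery pool (x axis) for every measured gene of 3 lists; a point is a gene and the bar the median. Hemoglobin and neutrophil medians were above 0 in pools 1 and 2 and at -0.43 and -0.48 in pool 3, where the interferon-stimulated median was -0.40.

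Hemoglobin values were less positive in recovery than at the end of stress. After 13 days the 6 genes had a median of 1.41, and the median difference, recovery minus 13 days, was -1.14. Hbb-b1 was at 1.46, 1.91 and 1.42 in the 3 pools at 13 days, all above the recovery pools, and the difference was -1.28, negative on 5 of 5 slides (-0.92 to -1.97). All 6 genes had an unadjusted limma p under 0.05 for the difference (3.35% of probes above background were lower in recovery at this p), but limma called 0 of 39429 probes (0%), with a lowest adjusted p of 0.11 and 2002 probes at an unadjusted p under 0.05. With the slide as a block over all 20 arrays 25 probes passed, 21 of them lower in recovery, in a fit that treats the arrays of a pool as nearly independent. Mgp, a matrix protein of vessels and meninges, was at 0.88 after 13 days and at 0.09 in recovery, and its difference was negative on 5 of 5 slides.

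Some immediate early genes, which neuronal firing switches on, also set pool 3 apart. Arc, a synaptic plasticity gene, was at -0.51, -0.42, -0.17, 1.52 and 1.47. Nr4a1, an orphan nuclear receptor, was at -0.17, -0.22, -0.29, 0.72 and 0.52, and Fos at 0.09, -0.24, -0.42, 0.71 and 0.50. In all of these both arrays of pool 3 were the highest. Of 23 measured genes 5 were below 0 in pools 1 and 2 and above 0 in pool 3 (10.4% over all). The median of the list was 0.04. Bdnf, a neurotrophin, averaged 0.14 ± 0.06 and was positive on 4 of 5 arrays.

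Clock genes had small values in recovery. Dbp, a clock output factor, had -0.28, -0.04, -0.23, -0.32 and -0.05, with a mean of -0.20 ± 0.07, and its other probe averaged -0.24. At 13 days Dbp was at 0.49, 0.20 and 0.53, all above the recovery pools. The difference was -0.61 (SE 0.09), with an adjusted limma p of 0.114. It was negative on 5 of 5 slides, which carry 3 pairs of pools. In the fits over 20 arrays with the slide as a block or with a dye term it passed. Those fits take the arrays of a pool as nearly independent. Nr1d1, the repressor of Arntl, had -0.28, -0.29, -0.16, -0.16 and -0.46 in recovery (mean -0.27 ± 0.04). Its pools at 13 days were at 0.60, -0.05 and 0.16, with a mean of 0.24. Nfil3, a repressor that binds the same sites as Dbp, averaged 0.17 ± 0.11 in recovery and -0.12 at 13 days, where its pools were at -0.15, 0.03 and -0.23. The pools at 13 days thus differed in sign for both genes. Cry1 averaged 0.20, but both of its swap arrays were negative. Of 18 clock genes 7 had an unadjusted limma p under 0.05 with lower values in recovery than at 13 days (3.35% over all), and Per2, for example, was at -0.01 in recovery and 0.53 at 13 days. The E-box of clock factors (CACGTG, the same on both strands) was found in 5 of 16 matched clock promoters (Ciart, Bhlhe41, Cry1, Per1 and Tef) and in 6.05% of all, and not in those of Dbp, Nr1d1 and Nfil3. The hour at which mice were taken was not analysed here.

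**Figure D4:**
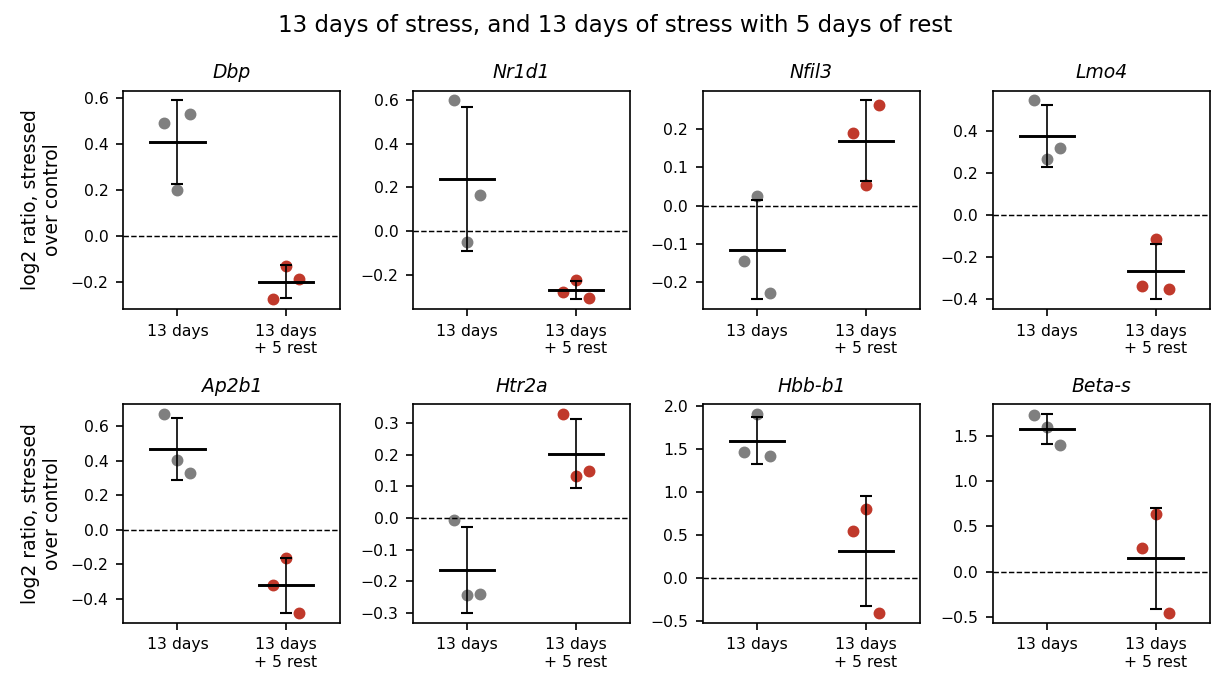
Log2 ratio of stressed over control (y axis) in the 3 pools taken after 13 days of stress and the 3 taken after 5 further days of rest, for 8 genes; the line is the mean and the bars the SD, n = 3. Dbp, Lmo4 and Ap2b1 were above 0 in all pools at 13 days and below 0 in all recovery pools, and Hbb-b1 and Beta-s had all pools at 13 days above all recovery pools. The genes were picked after their values were seen.

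Ap2b1 and Lmo4, with 5 negative arrays in recovery, had the opposite sign in all pools at the end of stress. Ap2b1, a subunit of the clathrin adaptor AP-2, had -0.32, -0.12, -0.21, -0.41 and -0.55 in recovery (mean -0.32 ± 0.16) and a mean of 0.47 at 13 days. Lmo4, a LIM-domain transcriptional regulator, averaged -0.27 ± 0.13 in recovery and 0.38 at 13 days, but its brighter probe was at -0.04 and 0.25. The differences from 13 days were -0.79 and -0.65, with adjusted limma p of 0.13 and 0.11. Both genes were among the probes that passed in the fits over 20 arrays with the slide as a block or with a dye term. Those fits take the arrays of a pool as nearly independent. Of all probes above background, 4.17% had 1 sign in the 3 recovery pools and the other in the 3 pools at 13 days. Ap2b1 and Lmo4 were named for 5 recovery arrays of 1 sign, so this share is too low a yardstick for them. Chmp4b, a subunit of the membrane-remodelling ESCRT-III complex, was below 0 at 3 of 3 probes (-0.22, -0.22 and -0.53). Rhoa, a GTPase of the cytoskeleton, averaged -0.20 at the named probe and 0.03 at a brighter one. Rfx2 was at -1.37, -0.14, -0.07, -0.14 and -0.34, so that its mean of -0.57 rests on pool 1, and its probe was well above background in the stressed channel on 3 of the 5 arrays and in the control channel on 4. With median centring, which moved the median of all probes above background to 0.145, Chmp4b, Rhoa and Dbp were above 0.

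The 15 genes with 5 positive arrays and the lowest unadjusted p had smaller values, from 0.13 to 0.27. Across all probes above background 1.96% were positive on 5 of 5 arrays and 12.5% in 3 of 3 pools. Sfmbt2, a Polycomb protein, had 0.23, 0.12, 0.24, 0.14 and 0.33 (mean 0.22 ± 0.03, unadjusted limma p 0.00035, adjusted p 0.989), and its other probe averaged 0.10. The prostaglandin enzymes Ptgis, prostacyclin synthase, and Ptgs2, cyclooxygenase-2, averaged 0.16 ± 0.07 and 0.18 ± 0.09, with the dimmer Ptgis probe at 0.01. Thrb, a thyroid hormone receptor, was at 0.16 ± 0.03, and its other probe at 0.14. Cxcl12, a chemokine, averaged 0.24 at the brighter probe and 0.06 at the other. Tfpi, the inhibitor of the tissue factor pathway of coagulation, was at 0.17 ± 0.09. Uxs1, Mpdz, Suv420h1, Sema3a, Sowaha, Rps6ka3, Ascc2, Cotl1 and Hopx were the others. Other probes had lower means for Uxs1 (0.07 and 0.01), Ascc2 (0.01), Sema3a (-0.004), Sowaha (0.05) and Rps6ka3 (0.04 and 0.05). A brighter Hopx probe was at 0.06, and other probes of Tfpi and Suv420h1 lay between 0.02 and 0.12.

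Neuronal gene lists had medians near 0. Htr2a, the 5-HT2A serotonin receptor, had 0.33, 0.32, -0.05, 0.19 and 0.11 (mean 0.20 ± 0.11), against -0.16 at 13 days, and the difference was positive on 5 of 5 slides. Camk2a, a kinase of excitatory synapses, was at 0.14 ± 0.01 with 5 positive arrays, but at 0.03 at its other probe. Grm5, a metabotropic glutamate receptor, averaged 0.21 and Rorb, a factor of cortical layer 4, 0.23, each with 1 array below 0 and lower means at other probes. Of 16 measured neuropeptide genes 3 had an unadjusted limma p under 0.05 with higher values (2.27% over all), Cartpt (0.18), Pdyn (0.12) and Vgf (0.11). Cartpt and Pdyn each had 1 array below 0, and the other Pdyn probe averaged -0.01. Vgf was at 0.001 in pool 1. The median was 0.03 over 36 glutamate and GABA receptor genes and 0.01 over 25 interneuron genes.

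Stress hormone genes were near 0. The 22 glucocorticoid-induced genes measured had a median of 0.02, and 0 had an unadjusted limma p under 0.05. Fkbp5, a chaperone of the glucocorticoid receptor, was at 0.07, Sgk1 at 0.07 and Tsc22d3 at -0.06. Agxt2l1 was at -0.15, -0.53, -0.46, 0.20 and 0.28, negative in pools 1 and 2 and positive in pool 3, and Fam107a averaged 0.01 ± 0.06. The glucocorticoid receptor gene Nr3c1 was at -0.05 and Crh, the corticotropin-releasing hormone, at 0.10.

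Other glial and vascular lists had medians within 0.1 of 0. Myelin genes had a median of -0.02, with Cnp (-0.17, above 0 with median centring) and Opalin (-0.14) negative on 5 of 5 arrays. Mbp was at 0.16 at the brightest probe, with both swap arrays negative (-0.18 and -0.26), and down to -0.23 at another. Of 24 myelin genes 5 were negative in 3 of 3 pools (11% over all) and 2 positive (12.5%). On 5 of 5 arrays 4 were negative (1.7% over all) and 1 positive (1.96%). Microglial genes had a median of -0.03 and astrocyte genes of 0.02. Meningeal fibroblast genes were above 0 for 23 of 26, with a median of 0.06. Of these genes 8 (30.8%) were positive in 3 of 3 pools, against 12.5% over all, and 5 on 5 of 5 arrays (1.96% over all). In all, 31 of the 37 lists had a median within 0.1 of 0.

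**Figure D5:**
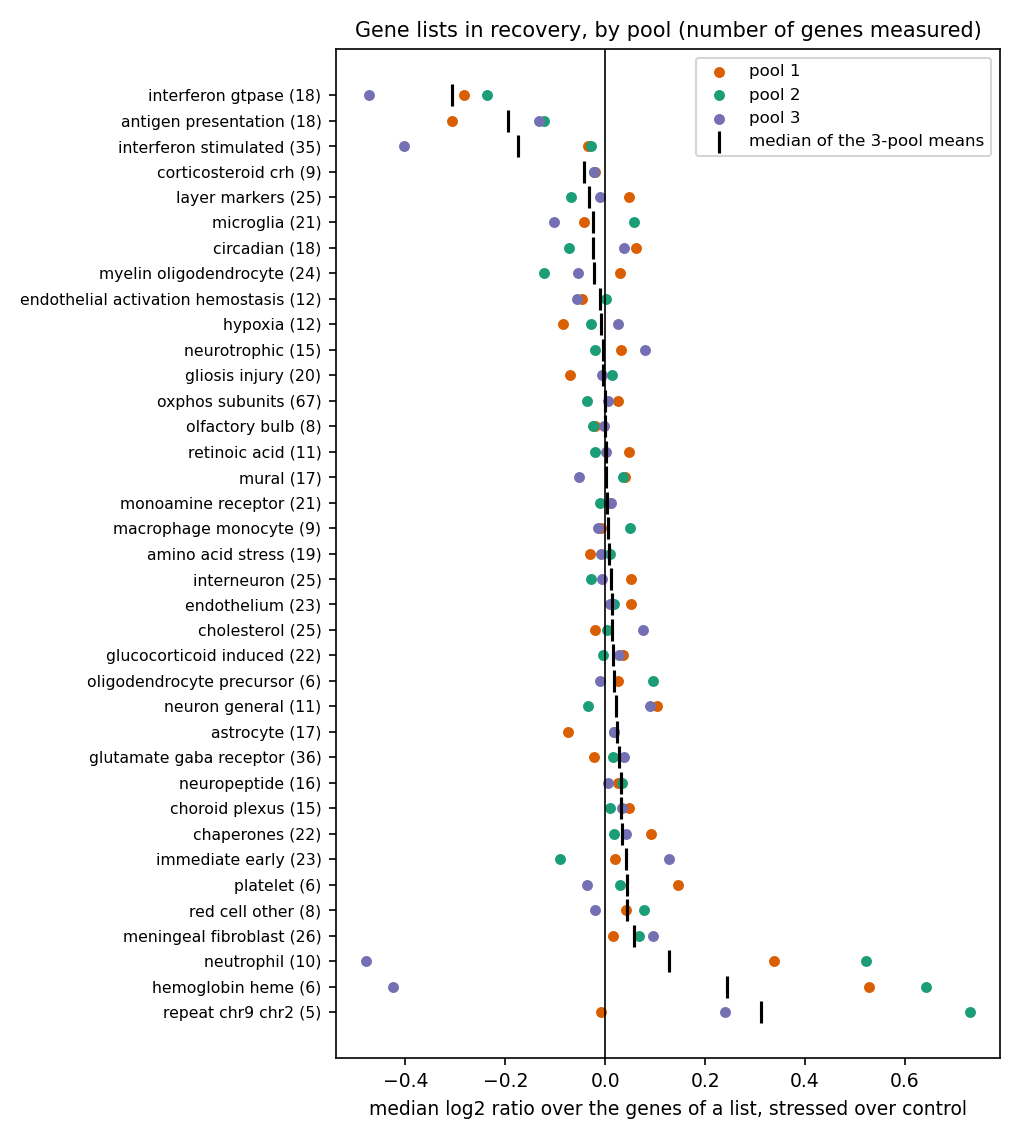
Median log2 ratio of formerly stressed over control (x axis) over the measured genes of each of 37 lists (y axis), by recovery pool and for the means of 3 pools. The GTPase, antigen presentation and interferon-stimulated lists had medians of -0.31, -0.19 and -0.17, and the hemoglobin, neutrophil and repeat-related lists of 0.24, 0.13 and 0.31 with pools far apart.

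Single pools carried some values. Timp1, an inhibitor of metalloproteinases, was at -2.93, 0.02, 0.01, 0.19 and 0.11, so that its mean of -0.92 rests on pool 1. Ttr, transthyretin of the choroid plexus, was at -2.33, 0.73, 0.76, 0.51 and 0.56, again with pool 1 apart. 1500015O10Rik, also expressed in choroid plexus, was positive throughout (0.51, 0.26, 0.11, 0.25 and 0.22, mean 0.31 ± 0.17) and at 0.79 after 13 days. A set of 5 repeat-related transcripts of chromosomes 9 and 2 had a median of 0.31, with -0.01, 0.73 and 0.24 in the pools, against -0.84 after 13 days, and 5 of 5 had an unadjusted limma p under 0.05 with higher values in recovery than at 13 days (3.35% over all). Fbln1 averaged 0.16 and Mpo, a neutrophil enzyme, 0.45 ± 0.63. Slc16a10, Mndal and Ppbp were not well above background on all 5 arrays.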

How the data were processed

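Mean spot intensities and local backgrounds, as deposited, were read by the authors from the scanned arrays with Agilent Feature Extraction and carry no normalization. The deposited log10 ratios of red over green were background-subtracted and dye-normalized by that program. The deposited value table holds log2 ratios that the authors made with normexp, loess and Aquantile, at an offset not given in the sources used here; its sign runs as stressed over control.

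Ratios were computed here from the intensities with limma 3.58.1 under R 4.3.3, helped by jsonlite 2.0.0, statmod 1.5.0 and the package data.table (version 1.17.8). The steps were normexp with an offset of 50, loess with weight 0 for control and outlier spots, and Aquantile. A few spots with a very bright local background distorted the normexp model, so spots over 2 times the median background of their array, at most 141, were left out and set missing, a choice made after seeing the data. Outlier spots were set missing, and the mean over spots of 1 sequence reduced 43020 spots to 39429 probes. The sign of dye-swap arrays was reversed before taking the mean of each pool. limma fitted 12 pools with a coefficient for each of 4 time points (degrees of freedom: 8 residual, 5.34 prior), and p-values were adjusted by Benjamini-Hochberg across all 39429. The number of arrays limits the precision.

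Of 28829 probes with a RefSeq accession 27427 were matched to RefSeq names, and probe positions are those of mm9. A gene in a list is its brightest probe. Genes were named by a rule: the 15 higher and 15 lower with 5 arrays of 1 sign and the lowest unadjusted p, up to 4 of each list with an unadjusted p under 0.05 and 3 pools of 1 sign or otherwise the 1 with the lowest p, and genes the study names. Any other gene given with values was chosen after they were seen. The members and lists were chosen with earlier results of these data known. Python 3.11.15, pandas 2.3.3 and matplotlib 3.10.9 made the counts and figures. Promoters are RefSeq, GRCm38.p6.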

Additional observations from a re-analysis of the deposited data

Results flagged for a closer look

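Of 94 named genes and probes, 15 had 1 sign in all 3 recovery pools and the opposite sign in all 3 pools taken at the end of 13 days of stress, against 4.17% of all probes above background. None of these differences passed the adjusted test by limma in the fit of 12 pools, but those of Lmo4, Dbp and Ap2b1 were called in the fits over 20 arrays with the slide as a block and with a dye term, and that of Dbp also from the original arrays alone. The fits over 20 arrays take the arrays of a pool as nearly independent. Values are recovery minus 13 days on the log2 scale. Lmo4 (-0.65, adjusted p 0.11), Dbp (-0.61, adjusted p 0.114) and Ap2b1 (-0.79, adjusted p 0.13) were below 0 in recovery and above 0 at 13 days. Htr2a (0.37, adjusted p 0.517) and Sfmbt2 (0.29, adjusted p 0.544) were above 0 in recovery and below 0 at 13 days. Other probes did not always share the turn of sign. A brighter Sfmbt2 probe was at 0.10 at both time points, and a brighter Lmo4 probe at -0.04 in recovery and 0.25 at 13 days. Other Rps6ka3 probes had differences of -0.13 and 0.13. Other probes of Dbp (-0.64), Chmp4b (-0.25 and -0.81) and Camk2a (0.30) had differences of the same sign as the named probe. Also below 0 in recovery and above 0 at 13 days were Rfx2 (-0.65), Ifit3 (-0.63), H2-T9 (-0.57), Chmp4b (-0.27) and Ndrg1 (-0.23). The reverse order was found for Camk2a (0.25), Crh (0.24), Rps6ka3 (0.23), Pdgfra (0.19) and Vgf (0.15). Adjusted p for these last 10 ran from 0.658 to 0.975. The naming rule favours genes whose recovery pools share a sign, so 4.17% is too low a yardstick for the count of 15. Above background, 3306 probes were positive and 2903 negative in all 3 recovery pools. Of these, 1103 had the opposite sign in all 3 pools at 13 days. No excess is read from the count of 15.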

How the results depend on the processing

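limma called 0 recovery probes under every alternative run except the original arrays alone, in which dye and stress cannot be told apart and 91 probes passed (86 higher, 5 lower). Leaving out 1 recovery pool gave 0 to 0 calls, with a lowest adjusted p of 0.055 without replicate 3. For recovery minus 13 days, 0 probes were called in the chosen fit, 21 with a dye term over 20 arrays (17 lower in recovery), 25 with the slide as a block over 20 arrays, 4 from the original arrays alone, and 0 to 1 when 1 recovery pool was left out (Beta-s without replicate 2). Dbp, Lmo4 and Ap2b1 were among the calls of both fits over 20 arrays, and Dbp also of that from the original arrays. These fits over 20 arrays treat the arrays of a pool as nearly independent. With the pool number as a replicate block the counts were 0 in recovery and 1 for the difference (Mgp). Pools sharing a number at different time points lay on the same slides and had an r of -0.20 to 0.51 (medians of 0.37, 0.22 and 0.18 for numbers 1, 2 and 3), against a median of -0.079 for other pairs. These r are of deviations from the mean of each time point, so those of same-number and other pairs are not independent. Not every pair with 1 number had a positive r, and the labels call the number only a biological replicate. It was left out of the chosen fit, which therefore ignores the pairing by slide. The antigen presentation median was -0.31 at an offset of 0, -0.34 from the scanner's log ratios and -0.085 with median centring, which raised the median of all probes above background as well. The GTPase median was -0.45 from the scanner's log ratios. Leaving out 1 pool gave medians of 0.05 to 0.60 for hemoglobin, -0.39 to -0.22 for GTPases, -0.24 to -0.04 for interferon-stimulated and -0.25 to -0.15 for antigen presentation genes. None of these 4 medians turned sign in any alternative run. The background model fitted to all spots, an alternative chosen after seeing the data, gave 0 calls, and medians of -0.19 for GTPases and -0.09 for interferon-stimulated genes. Of 94 named genes and probes 17 turned sign with median centring, and 0 to 5 under each other alternative. The cause was not tested for any of these shifts.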
